A study of Mus musculus with 14 samples.

Results

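The receptors through which inflammatory cytokines and interferons reach blood-forming stem and progenitor cells were examined by H3K4me3 at their promoters. The set held 10 genes out of 21437 protein-coding genes with a usable start: Il1r1 and Il1rap for interleukin-1, Tnfrsf1a and Tnfrsf1b for tumor necrosis factor (TNF), Il6ra and Il6st for interleukin-6, Ifnar1 and Ifnar2 for type I interferon, and Ifngr1 and Ifngr2 for interferon-γ. They were chosen by name, as the chains of these receptors, and every peak within 1 kb of an annotated start of such a gene was counted as a call. CUT&Tag, in which an antibody directs a transposase to cut and tag the chromatin it is bound to, was run with an H3K4me3 antibody on LSK cells, the lineage-negative, Sca-1-positive, c-Kit-positive fraction of mouse bone marrow that holds the hematopoietic stem cells. HFD-LSK came from C57BL/6J males given a diet with 60% of kcal from fat (3 libraries), and LFD-LSK came from males of that strain given a control diet with 10% of kcal from fat (4 libraries). The mice were 3 to 4 wk old when obtained and stayed on the diet for 16 to 20 wk, and 10000 sorted cells entered each library. The labels do not say whether a library came from 1 mouse or from several, so each p-value below measures only the spread between these libraries.

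Each receptor works as a pair of chains or as alternative receptors for 1 ligand. IL-1 binds the chain encoded by Il1r1, which then recruits the accessory protein encoded by Il1rap. TNF has separate receptors, of which Tnfrsf1a encodes the death-domain form and Tnfrsf1b the form that lacks a death domain. IL-6 binds the chain encoded by Il6ra and signals through gp130, the product of Il6st, which other cytokines of the family share. Type I interferons bind IFNAR1 and IFNAR2 together, and interferon-γ binds IFNGR1 and needs IFNGR2 to signal through the Janus kinases. In hematopoietic stem cells these inputs are known to drive emergency myelopoiesis and exit from quiescence. H3K4me3, trimethylation of lysine 4 of histone H3, marks the starts of genes that are active or poised, so a peak says that a promoter carries the mark and does not measure the receptor on the cell.

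Promoters of 9 of the 10 genes carried a peak in at least 1 list, compared with 53.9% of all coding genes. Peaks stood in all 7 lists at 4 genes, Tnfrsf1b, Il6st, Ifnar2, and Ifngr1 (21.8% of coding genes reached all 7). A further 4 genes, Il1rap, Tnfrsf1a, Il6ra, and Ifnar1, were called in every HFD-LSK list and in 3 of the 4 LFD-LSK lists (11.4% of coding genes). Il1r1 was called in 5 lists. Ifngr2 was called in none. Interleukin-1, TNF, interleukin-6, and type I interferon were the inputs for which every chain listed here had a marked promoter in at least 5 lists. Interferon-γ was the input with a peak called at its binding chain alone. These statements held for the lists as deposited. With a -log10 q of at least 5, Il1r1 and Il1rap were each called in 4 lists, as was Il1r1 when the summit had to lie within 1 kb, and with every list cut to the length of the shortest, Il1r1 was called in 2 lists, Il6ra in 3, and Il1rap in 4.

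The promoters that set apart the calls within a receptor are shown, 250 bases before and 50 after the start, from RefSeq on GRCm38.p6 and with every CG pair in capitals. Ifngr1 (chr10:19591699-19591998, forward strand, called in 7 lists) and Ifngr2 (chr16:91546809-91547108, forward strand, called in none) belong to 1 receptor, and Il1r1 has an outer start (chr1:40224830-40225129) and an inner start (chr1:40266336-40266635), both on the forward strand.
Ifngr1: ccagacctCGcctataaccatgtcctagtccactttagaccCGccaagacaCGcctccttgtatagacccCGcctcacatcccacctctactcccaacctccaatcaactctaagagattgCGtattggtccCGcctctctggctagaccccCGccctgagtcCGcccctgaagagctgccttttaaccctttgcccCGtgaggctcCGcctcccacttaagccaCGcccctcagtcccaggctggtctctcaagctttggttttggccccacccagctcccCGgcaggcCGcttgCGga
Ifngr2: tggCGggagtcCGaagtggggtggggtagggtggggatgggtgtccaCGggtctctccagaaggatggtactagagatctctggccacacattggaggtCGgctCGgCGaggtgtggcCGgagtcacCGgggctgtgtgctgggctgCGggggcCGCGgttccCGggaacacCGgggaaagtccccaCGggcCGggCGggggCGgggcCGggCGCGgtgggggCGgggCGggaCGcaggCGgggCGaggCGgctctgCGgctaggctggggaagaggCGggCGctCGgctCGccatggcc
Il1r1 outer start: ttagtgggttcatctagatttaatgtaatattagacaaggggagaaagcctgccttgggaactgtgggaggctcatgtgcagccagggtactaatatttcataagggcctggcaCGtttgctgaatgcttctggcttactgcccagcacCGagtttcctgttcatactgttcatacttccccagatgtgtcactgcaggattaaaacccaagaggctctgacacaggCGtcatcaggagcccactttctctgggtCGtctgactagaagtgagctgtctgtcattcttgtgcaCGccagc
Il1r1 inner start: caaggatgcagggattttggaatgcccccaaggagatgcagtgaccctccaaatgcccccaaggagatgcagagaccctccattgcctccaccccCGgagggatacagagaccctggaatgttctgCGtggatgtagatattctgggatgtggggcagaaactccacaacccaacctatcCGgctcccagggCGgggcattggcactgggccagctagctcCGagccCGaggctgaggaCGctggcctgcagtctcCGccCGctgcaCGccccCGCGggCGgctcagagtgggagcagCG
Ifngr2, without a peak, held 31 CG pairs and Ifngr1, with a peak everywhere, held 14. At Il1r1 the order was the opposite, with 14 CG pairs at the inner start, where the peaks lay, and 5 at the outer start.

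The lists held 9186 to 13094 peaks in HFD-LSK and 6921 to 10572 in LFD-LSK, and the number of receptor genes called was 8, 9, and 9 in the HFD-LSK lists and 7, 9, 8, and 7 in the LFD-LSK lists, in the order of their replicate numbers, as in all values below. The means were 8.67 ± 0.577 (SD, n = 3) and 7.75 ± 0.957 (SD, n = 4), and the ranges overlapped. Of all coding genes, 41.3%, 51.8%, and 45.5% were called in the HFD-LSK lists and 34.8%, 45.1%, 43.3%, and 30.6% in the LFD-LSK lists. Il1rap, Tnfrsf1a, Il6ra, and Ifnar1 were each called in 3 of 3 HFD-LSK lists and 3 of 4 LFD-LSK lists, and Il1r1 in 2 of 3 and 3 of 4. The other genes were called in every list or in none. Fisher's exact test on the calls (two-sided) gave p = 1 for each of the 10 genes. With 3 lists against 4 and so few missing calls per gene, that test could not pass its threshold for any gene. It therefore does not decide whether calls differed between the diets. Apart from Ifngr2, 6 calls were missing out of the 9 genes in 7 lists. HFD-LSK replicate 1 lacked Il1r1, LFD-LSK replicate 1 lacked Il1r1 and Il6ra, LFD-LSK replicate 3 lacked Il1rap, and LFD-LSK replicate 4 lacked Tnfrsf1a and Ifnar1.

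The depth behind a call was recovered from the fold and p of each peak, which fix the number of fragments at the summit. The receptor peaks rested on 12 to 90 fragments at the summit. The fewest fragments that gave a peak anywhere in a list came to 16, 8, and 4 for HFD-LSK and 21, 10, 8, and 9 for LFD-LSK. In multiples of the mean coverage of its library, the limit for a call stood at 79.7, 29.8, and 34.5 for HFD-LSK and 98.3, 58.1, 59.98, and 101 for LFD-LSK. All 6 missing calls fell in the 4 lists with the highest limits, and the part of the limit in them was not tested. For 5 of the 6, every summit of that gene in its other lists was above the limit of the list that lacked it. A list without a peak gives no measured level at that promoter, and a missing call was not read as absence of the mark. The tests on rank numbers below nevertheless place such a list after its last peak.

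**Figure D1:**
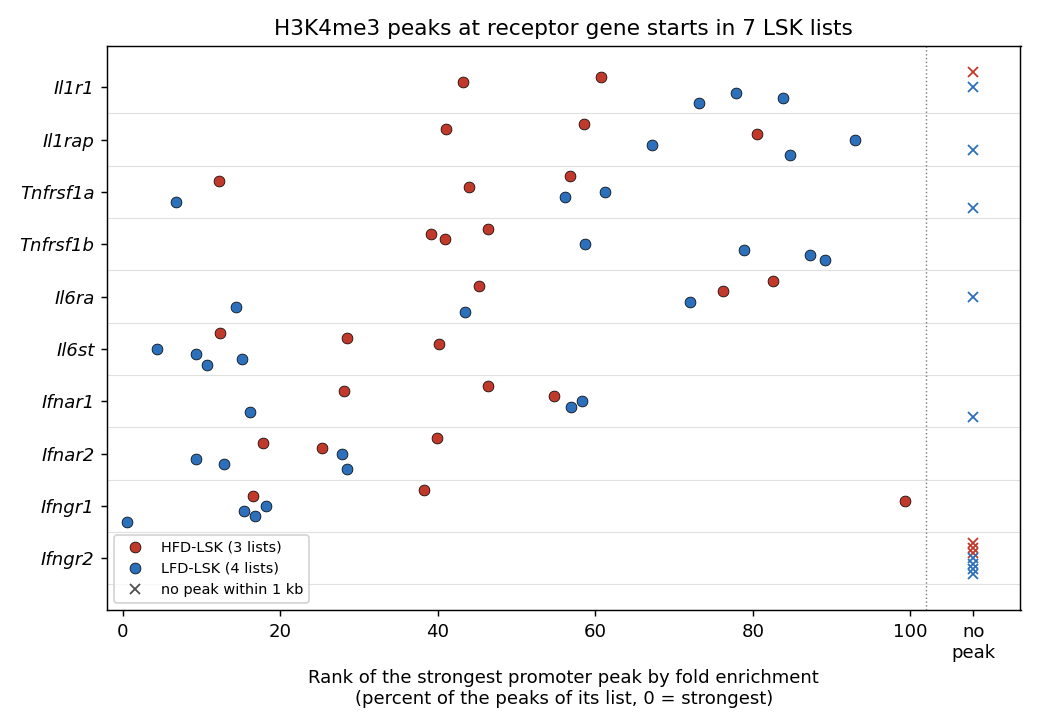
Rank of the strongest H3K4me3 peak within 1 kb of each receptor gene start, by fold enrichment within its own list and as a percent of that list (horizontal axis, 0 is the strongest peak), for 3 HFD-LSK lists (red) and 4 LFD-LSK lists (blue); crosses mark lists without a peak. Il6st points lie between 4.28% and 40.2%, Il1r1 and Il1rap points lie beyond 41%, and Ifngr2 has crosses alone.

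Fold enrichment, the height of a summit over its local background, is relative to the surroundings of a peak in 1 library, so peaks were ranked by fold within a list, from rank 1 for the strongest, and the rank was also expressed as a percent of the list. By the mean of that percent over the lists with a call, the genes stood in the order Il6st (17.2%), Ifnar2 (23.0%), Ifngr1 (29.3%), Tnfrsf1a (39.5%), Ifnar1 (43.4%), Il6ra (55.6%), Tnfrsf1b (62.9%), Il1r1 (67.7%), and Il1rap (70.8%). Neighbors in this order were not separated: none was nearer the top than the next gene in every list that called both, as in Il6st and Ifnar2, where Il6st was nearer in 3 of 7. Of the 36 pairs among the 9 called genes, 11 kept 1 order in every list that called both. Il6st ranked nearer the top than Tnfrsf1b in 7 of 7 lists, than Il1rap in 6 of 6, and than Il1r1 in 5 of 5, and Ifnar2 did so against the same genes in 7 of 7, 6 of 6, and 5 of 5. Other genes far apart in the order were not separated, as in Ifngr1, which was nearer the top than Il1rap in 5 of 6 lists and than Tnfrsf1b in 6 of 7. The order pooled the diets: the mean of Ifngr1 was 51.4% in HFD-LSK and 12.7% in LFD-LSK, and that of Tnfrsf1b 42.1% and 78.5%. Without HFD-LSK replicate 3, an omission made after the data were seen, the mean of Ifngr1 was 17.6%.

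For the interleukin-1 receptor, the binding chain and the accessory protein were marked together in 4 lists, HFD-LSK replicates 2 and 3 and LFD-LSK replicates 2 and 4. Il1r1 (chromosome 1, 40222480 to 40316201) has starts 41506 bp apart. Peaks stood at the inner start in 5 lists and at the outer start in HFD-LSK replicate 3 alone, so the calls at this gene were calls of the inner promoter. It ranked at 60.7% of the list in HFD-LSK replicate 2 and at 43.2% in replicate 3, whereas LFD-LSK replicates 2, 3, and 4 had 77.9%, 83.8%, and 73.1%. For the test on rank numbers, a list without a call was given the middle of the ranks between its last peak and the 14659 peaks of the consensus of all lists, and the mean ranks of Il1r1 were then 8348 and 8256, a difference of 92.2 (p = 0.886 in an exact permutation test, two-sided, with 35 ways to split the lists). The Il1r1 peak was the most variable of the set in width, from 225 bp in LFD-LSK replicate 4 to 2401 bp in HFD-LSK replicate 2, and in LFD-LSK replicate 2 its summit lay 1807 bp downstream of the start. Il1rap (chromosome 16, 26581509 to 26730128) ranked at 58.6%, 41.0%, and 80.5% in HFD-LSK and at 93.0%, 67.2%, and 84.7% in LFD-LSK replicates 1, 2, and 4. These ranges overlapped. With a rank of 12506 given to LFD-LSK replicate 3, the mean rank was nearer the top in HFD-LSK (6799 against 8099). The difference of -1300.4 had p = 0.6 in the two-sided exact permutation test. Without that list the difference was 168.5, farther from the top in HFD-LSK. Il1rap peaks were 905, 1470, and 1006 bp wide in HFD-LSK and 467, 615, and 508 bp wide in LFD-LSK. Widths of Il1rap were not tested, since LFD-LSK replicate 3 had no peak to measure.

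Il1r1 lies in a row of related receptor genes on chromosome 1, all on the forward strand. Il1r2, which encodes the decoy receptor for IL-1, starts upstream of the inner Il1r1 start, at position -180493 bp from it, and was called in 0 lists. Il1rl2, for the receptor of the IL-36 cytokines, starts 58003 bp downstream and was called in 3 lists. Il1rl1, for the IL-33 receptor, was called in 0 lists, Il18r1 was called in 2, and Il18rap was called in 0. Il1r1 was thus the gene of this row with the most calls, and Il1rl2 and Il18r1 are named here after their values were seen.

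For TNF, at least 1 of the receptors was marked in all 7 lists and both were marked in 6. Tnfrsf1a (chromosome 6, 125349723 to 125362483) ranked at 56.8%, 12.2%, and 44.0% in HFD-LSK and at 61.3%, 56.1%, and 6.80% in LFD-LSK replicates 1, 2, and 3. The mean rank was 4028 in HFD-LSK and 5497 in LFD-LSK, with the same rule for the missing list. The difference of -1470 had p = 0.657 in the two-sided exact permutation test. Without the missing list, LFD-LSK replicate 4, the difference was 295, farther from the top in HFD-LSK. Ltbr, the lymphotoxin-β receptor gene, starts at -35838 bp from the Tnfrsf1a start, on the opposite strand, and was called in all 7 lists, including LFD-LSK replicate 4, where Tnfrsf1a was not. Tnfrsf1b (chromosome 4, 145212368 to 145246870, reverse strand) ranked at 46.3%, 39.1%, and 40.9% in HFD-LSK and at 58.7%, 78.9%, 87.3%, and 89.1% in LFD-LSK. As a percent of the list, every HFD-LSK rank of Tnfrsf1b was nearer the top than every LFD-LSK rank, which held for 1 of the 4 genes called throughout and for 3.32% of the 4675 coding genes called throughout. The percent-of-list difference of -36.4 gave p = 0.0571 (exact permutation test, two-sided). As rank numbers the Tnfrsf1b values were 4256.5, 5115, and 4896 in HFD-LSK and 4370, 8338, 9032.5, and 6168.5 in LFD-LSK. These overlapped in LFD-LSK replicate 1, and the mean difference of -2221 was not past the test either (two-sided exact permutation p = 0.171). Ranked by summit fragments, this difference was -737 with overlapping ranks (two-sided exact permutation p = 0.286). Among consensus peaks that every list held it was -1124 (p = 0.0571 in that exact test). Summits of Tnfrsf1b were 204, 179, and 147 times mean coverage in HFD-LSK and 211, 163, 135, and 146 times in LFD-LSK. The local background was 0.284, 0.675, and 1.14 fragments in HFD-LSK and 0.567, 1.81, 1.42, and 0.0891 in LFD-LSK. Its part in the ranks was not tested. The Tnfrsf1b peak was 745, 1885, and 386 bp wide in HFD-LSK and 490, 533, 277, and 682 bp wide in LFD-LSK, with no separation of the diets (two-sided exact permutation p = 0.229).

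For interleukin-6, the binding chain and gp130 were marked together in 6 lists. Il6ra (chromosome 3, 89869324 to 89913196, reverse strand) ranked at 82.6%, 45.2%, and 76.2% in HFD-LSK and at 72.1%, 14.4%, and 43.4% in LFD-LSK replicates 2, 3, and 4. The ranges overlapped, with a mean rank of 7544 against 5790 (p = 0.571 in the two-sided exact permutation test). LFD-LSK replicate 1, without a peak, entered at a given rank of 11053.5. The difference of 1754 was 319.5 when LFD-LSK replicate 3 was left out and 3509 when replicate 1 of that diet was. Il6st (chromosome 13, 112464070 to 112506860) was nearer the top than Il6ra in 5 of the 6 lists that called both. Il6st had ranks of 1128.5, 3729, and 4815 in HFD-LSK and of 318.5, 979, 1565.5, and 737 in LFD-LSK. The diets overlapped, since LFD-LSK replicate 3 was farther from the top than HFD-LSK replicate 1, and the mean was 2324 ranks farther from the top in HFD-LSK (two-sided exact permutation p = 0.0571). The local background at Il6st was 2.38 and 2.19 fragments in HFD-LSK replicates 2 and 3, compared with 0.0891 to 0.214 in the other 5 lists, and its part in these ranks was not tested. Il6st had the tightest summit position of the set, from 51 bp upstream to 81 bp downstream of the start, and widths from 719 to 1677 bp (mean difference 124 bp; two-sided exact permutation p = 0.714).

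For type I interferon, both chains were marked in 6 lists, and Ifnar2 ranked nearer the top than Ifnar1 in all 6. Ifnar1 (chromosome 16, 91485032 to 91510523) ranked at 46.3%, 28.1%, and 54.8% in HFD-LSK and at 58.3%, 56.9%, and 16.2% in LFD-LSK replicates 1, 2, and 3. The diets overlapped, with a mean rank of 4832 against 5705 (p = 0.743 in the two-sided exact permutation test). LFD-LSK replicate 4, without a peak, entered that mean at a given rank of 10790.5. Without that list the difference was 822 ranks, farther from the top in HFD-LSK. Ifnar2 (chromosome 16, 91372783 to 91405589) had ranks of 3663.5, 2322.5, and 3023.5 in HFD-LSK and of 2075, 979, 1324.5, and 1965.5 in LFD-LSK. Every HFD-LSK rank of Ifnar2 was farther from the top than every LFD-LSK rank, with means of 3003 ± 671 (SD, n = 3) and 1586 ± 523 (SD, n = 4) and p = 0.0286, the smallest that this exact permutation test can give. The lists differed in length, with 9186, 13094, and 11977 peaks in HFD-LSK and 7447, 10572, 10352, and 6921 in LFD-LSK. As a percent of the list the Ifnar2 values were 39.9%, 17.7%, and 25.2% in HFD-LSK and 27.9%, 9.26%, 12.8%, and 28.4% in LFD-LSK. On that scale the diets overlapped (two-sided exact permutation p = 0.343). Where ranks were limited to consensus peaks that every list held, the Ifnar2 difference was 663 and was not past the test (two-sided exact permutation p = 0.257). Ifnar2 peaks were 574 to 2266 bp wide and did not separate the diets (two-sided exact permutation p = 0.486).

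For interferon-γ, no list had a called peak at both chains. Ifngr1 (chromosome 10, 19591949 to 19610229) was called in all 7 lists, with ranks of 3516, 2157, and 11903 in HFD-LSK and of 1348.5, 1629.5, 1731.5, and 39 in LFD-LSK. It stood at the very top in LFD-LSK replicate 4, at 0.564% of the list with 43 fragments at the summit, and almost at the end in HFD-LSK replicate 3, at 99.4% of the list with 18. Every HFD-LSK rank was farther from the top than every LFD-LSK rank (difference of 4672; two-sided exact permutation p = 0.0286). The local background at Ifngr1 was 4.38 fragments in HFD-LSK replicate 3, compared with 0.0891 to 0.540 in the other 6 lists, and its part in the rank was not tested. Without that list the mean difference was 1649 ranks. Ranked by summit fragments, the Ifngr1 difference was 2018 with overlapping ranks (two-sided exact permutation p = 0.0857), and ranked by -log10 p it was 4599 (p = 0.0571 in that exact test). With ranks limited to consensus peaks that every list held it was 1891 (p = 0.0286 in that exact test). As a percent of the list Ifngr1 overlapped between the diets, with 38.3%, 16.5%, and 99.4% in HFD-LSK and 18.1%, 15.4%, 16.7%, and 0.564% in LFD-LSK (two-sided exact permutation p = 0.0857). In multiples of the mean coverage its summits were 224, 250, and 155 in HFD-LSK and 300, 256, 210, and 483 in LFD-LSK, which overlapped as well. Widths of Ifngr1 ranged from 583 to 1306 bp (two-sided exact permutation p = 0.714).

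Ifngr2 (chromosome 16, 91547059 to 91564007) had no peak within 1 kb of its start in any list, none within 3 kb, and none inside the gene. The nearest peak lay 49475 to 50565 bp away in 6 lists and 81731 bp away in LFD-LSK replicate 4. The gene shares its region with other receptor genes. On the forward strand of chromosome 16 lie Ifnar2, then Il10rb, which encodes a shared chain of the interleukin-10 and type III interferon receptors and starts 33374 bp on, then Ifnar1 at 112432 bp, and then Ifngr2 at 174276 bp. Il10rb was called in all 7 lists, at ranks of 4911, 1426, and 10977 in HFD-LSK and of 1848, 2071, 3004.5, and 2637 in LFD-LSK. Along this cluster the number of lists with a peak was 7 at Ifnar2, 7 at Il10rb, 6 at Ifnar1, and 0 at Ifngr2. A further peak, between Il10rb and Ifnar1 and away from any coding start, lay at the lncRNA gene A930006K02Rik in 5 lists.

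**Figure D2:**
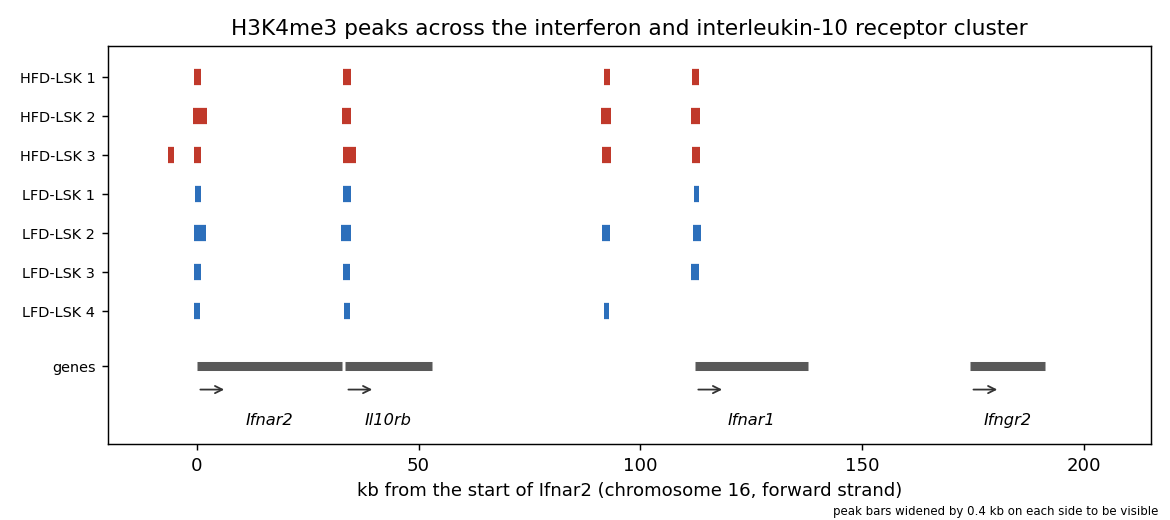
Peaks of 7 lists along the receptor cluster on chromosome 16, in kb from the start of Ifnar2 (horizontal axis), with HFD-LSK in red and LFD-LSK in blue, genes as gray bars, and arrows for the direction of transcription; peak bars are widened to be visible. Peaks line up at the starts of Ifnar2, Il10rb, and Ifnar1, and no list has a peak at Ifngr2.

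Most peaks lay across the gene start. Of the 57 receptor peaks, 52 covered the start itself, 48 had their summit within 300 bp of it, and 46 had their summit downstream, with a median of 134 bp. The median width was 905 bp. The widest peaks were in HFD-LSK replicate 2 or LFD-LSK replicate 2 for Il1rap, Tnfrsf1a, Tnfrsf1b, Il6st, Ifnar1, Ifnar2, Ifngr1, Il6ra, and Il1r1, the lists whose peaks were also the widest over the whole list (medians of 1198 and 961 bp).

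**Figure D3:**
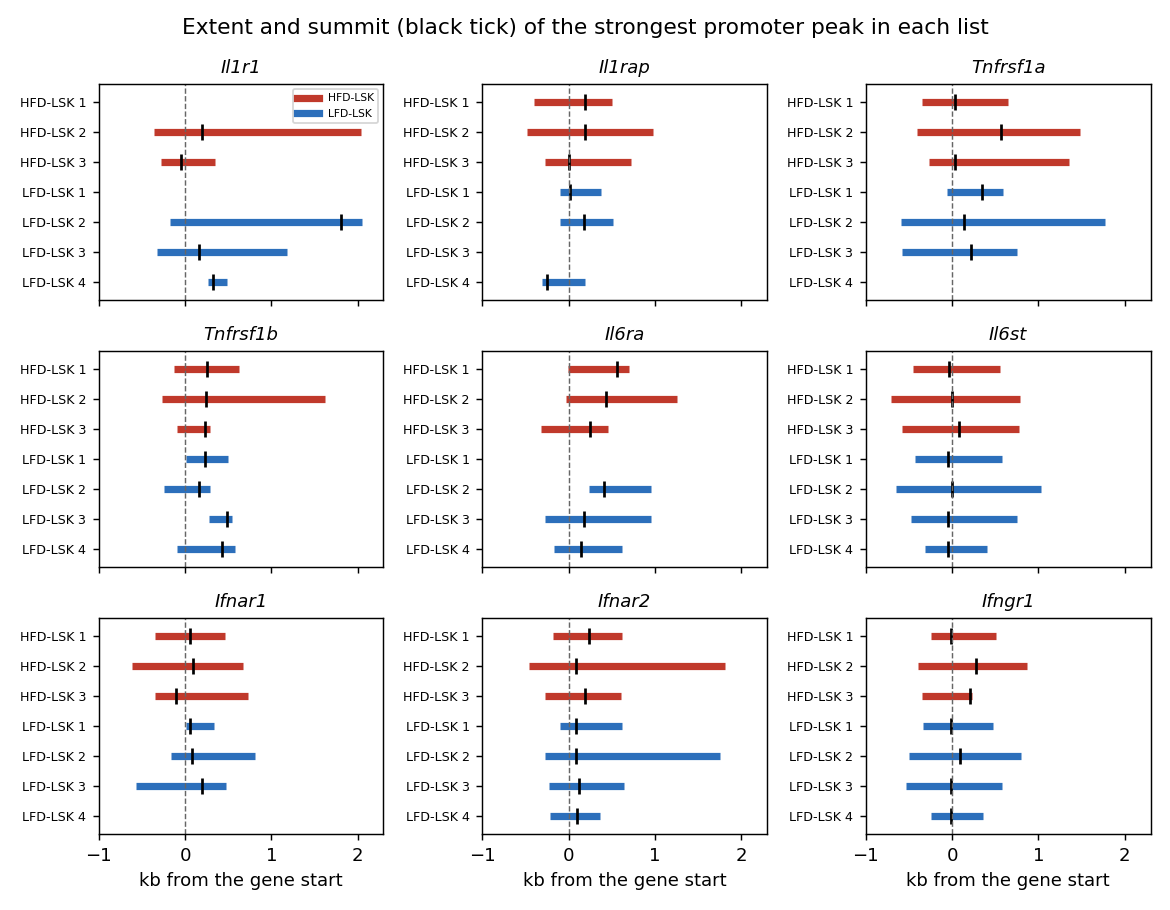
Extent of the strongest peak at each of the 9 marked receptor genes, in kb from the gene start in the direction of transcription (horizontal axis), in each HFD-LSK (red) and LFD-LSK (blue) list, with a black tick at the summit; an empty row is a list without a peak. Summits gather within 300 bp of the start, and the Il1r1 summit of LFD-LSK replicate 2 lies 1807 bp downstream.

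Of the 4 genes called in all 7 lists, 2 (Ifnar2 and Ifngr1) ranked farther from the top in every HFD-LSK list than in every LFD-LSK list, as did 4.32% of the coding genes called throughout. None of the 4 ranked nearer the top by rank number (1.39% of coding genes), and none was wider in every HFD-LSK list (6.78%). Rank numbers were shifted in general: over the 4675 coding genes called in all 7 lists, the median difference was 678 ranks farther from the top in HFD-LSK. The differences were 2324 for Il6st, 1417 for Ifnar2, 4672 for Ifngr1, and -2221 for Tnfrsf1b. List lengths overlapped between the diets, at 9186 to 13094 peaks in HFD-LSK and 6921 to 10572 in LFD-LSK. Their part in the shift was not tested. As a percent of the list the median over these coding genes was -1.79, and 0 of the 4 receptor genes were farther from the top in every HFD-LSK list (1.6% of coding genes). Neither Ifnar2 nor Ifngr1 was separated between the diets as a percent of the list. Ifnar2 was also not past the test among consensus peaks that every list held, and Ifngr1 was not past it by -log10 p or by summit fragments. Among those consensus peaks Ifngr1 stayed past the test, and by -log10 p and by summit fragments Ifnar2 did. As a percent of the list neither gene was past it.

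**Figure D4:**
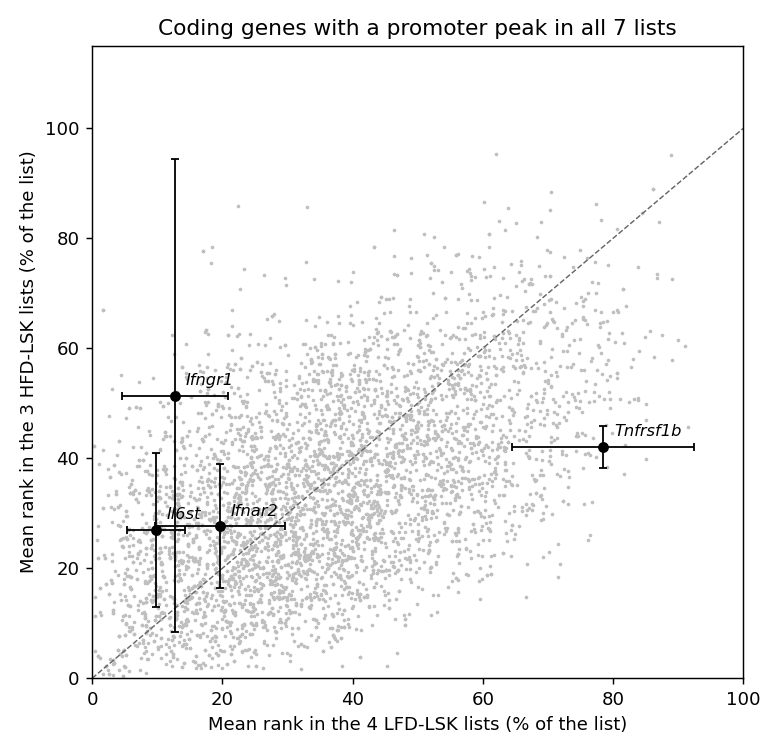
Mean rank of the promoter peak, as a percent of the list, in LFD-LSK (horizontal axis) and HFD-LSK (vertical axis) for the 4675 coding genes called in all 7 lists (gray) and 4 receptor genes (black, with SD over 4 and 3 lists). Tnfrsf1b lies below the line of equality at 78.5% and 42.1%, Ifngr1 above it at 12.7% and 51.4%, and the SD of Ifngr1 in HFD-LSK is 43.0.

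Calls rose with the GC content of the promoter over all coding genes. Of the 300-base promoters, 0.862% of those under 40% GC and 47.1% of those with at least 75% GC were called in all 7 lists. The receptor promoters had a median of 63.3% GC (all coding promoters, 56.3%). The outer start of Il1r1, at 49.3% GC, had a peak in 1 list, and its inner start, at 63.3%, had a peak in 5. Ifnar2 and Tnfrsf1a, each at 57% GC, were called in 7 and 6 lists. Ifngr2 had the highest GC of the set, 74.3%, at percentile 94.4 of the coding promoters. Among 1061 other coding promoters within 2 points of it, 47.4% were called in all 7 lists and 13.3% in none, so the absence of calls at Ifngr2 was shared by 141 promoters of like composition.

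**Figure D5:**
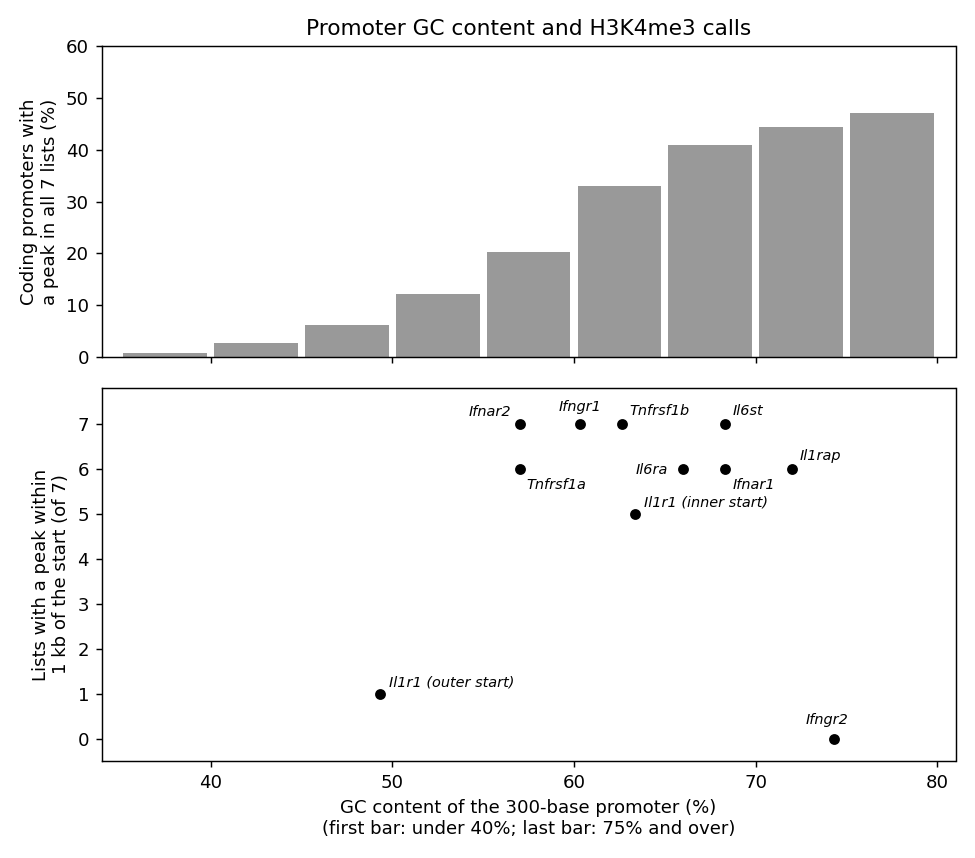
Top, share of coding promoters with a peak in all 7 lists (vertical axis, percent) by GC content of the 300 bases around the start (horizontal axis); bottom, number of lists with a peak for each receptor promoter at its own GC content. The share rises from 0.862% to 47.1% across the GC range, and Ifngr2 has 0 lists at 74.3% GC.

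The receptor promoters were searched on both strands for short sequences, and a match describes the letters alone. CCAAT was found in 5 of the 11 receptor promoters (38.2% of 21262 coding promoters), GGGCGG, the letters of the GC box, in 8 (46.2%), and TATAAA in 0 (12.6%). The letters TTCNNNGAA, the pattern of the interferon-γ activated site (GAS) that STAT proteins recognize, were found at 4 genes (7.69% of coding promoters), and GAAANNGAA, the core of the interferon-stimulated response element (ISRE), at 2 (8.14%). Coding promoters called in all 7 lists held the GAS letters in 5.96% of cases and those called in none in 9.27%. The matches are shown with 10 bases on each side where the promoter reaches so far and with the motif in capitals, because the interferon and IL-6 receptors signal to STAT proteins. None of them overlapped a match to another of the 5 motifs.
Tnfrsf1a GAS: gcttccTTCCGTGAAattgacaaca
Tnfrsf1b GAS: agcgcattcaTTCCCGGAAgagatgctgg
Ifnar1 GAS: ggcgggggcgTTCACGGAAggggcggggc
Ifnar2 GAS: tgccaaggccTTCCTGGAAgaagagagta
Tnfrsf1b ISRE core, on the opposite strand: gcctgagggtTTCGCTTTCagtcaccagc
Il1rap ISRE core: tccggaggggGAAAAAGAAagtgcggcgg
The Ifnar1 match spans the start, from base -5 to base 3 counted from 0 at the start, and the others begin at base -244 for Tnfrsf1a, -181 for Tnfrsf1b, and -214 for Ifnar2. The ISRE letters begin 20 bases after the start at Il1rap and end at the base before it at Tnfrsf1b. All 4 genes with GAS letters were called in 6 or 7 lists, as were Il1rap, Il6ra, Il6st, and Ifngr1, which lack those letters in these windows. Ifngr1 and Ifngr2 held neither pattern in these windows.

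The other genes of these pathways are given by role, beside 21.8% of all coding genes called in all 7 lists and 46.1% in none, with no test between the roles. Of 9 ligand genes, 0 were called in all 7 lists and 8 in none (Il1a, Il1b, Il1rn, and Lta among them), and Tnf, named after its values were seen, was called in 2. Of 12 transducers that bind the receptors or act just below them, 7 were called in all 7 lists and 0 in none. Myd88 and Irak4, of the IL-1 pathway, and Tradd and Ripk1, of the TNF pathway, were among the 7. Of 17 related receptors, 2 were called in all 7 lists (Il10rb and Ltbr), 10 in some, and 5 in none, including Il1r2, Il1rl1, Il18rap, and Osmr. Of 12 hematopoietic growth factor receptors, 1 was called in all 7 lists (Kit), 7 in some, and 4 in none (Csf1r, Csf2ra, Il5ra, and Il7r). Counted over lists, the transducers reached 9 to 12 of 12 genes in a list and the growth factor receptors 2 to 7 of 12. Il7r encodes CD127, an antigen used in the lineage depletion before the sort.

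The labelled cell type was checked against its markers. Of 10 LSK genes, 5 were called in all 7 lists (Kit, Cd34, Meis1, Gata2, and Mecom), 4 in some, and 1 in none. The gene without a call was Ly6a, which encodes Sca-1, an antigen that defines the sort. None of 4 T cell and 4 B cell genes had a peak in any list. Of 6 mature myeloid genes, 5 had none and Cd14 was called in 6 lists, 2 HFD-LSK and 4 LFD-LSK. Of 4 erythroid genes 3 were called in some lists, and of 5 genes of bone marrow stroma and endothelium 2 were. The part of other cells in the receptor peaks was not tested.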

How the data were processed

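H3K4me3 CUT&Tag peak lists of 3 HFD-LSK and 4 LFD-LSK libraries were used, called per library, and the IgG libraries were not analysed here. The sample titles name CUT&RUN, whereas the study's methods describe CUT&Tag, and the assay is named here after the methods. The submitters' processing notes name Trim Galore, Bowtie2, Picard, MACS2, bedtools, HOMER, and featureCounts with GRCm38, without versions, whereas the study's methods name SEACR and GRCm39; the lists are in MACS2 format, and their lowest -log10 p is that of a p threshold of 1e-05. The authors deposited, for each peak, the fold of the summit over local background (a ratio), its -log10 p and -log10 q, and a score that is a multiple of the -log10 p. A fold is relative to its own library, so ranks rather than folds were compared between libraries, and longer lists give larger rank numbers.

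Starts came from the RefSeq promoter table on GRCm38.p6, in which all 10 receptor genes matched. For 3946 other genes, Il10rb among them, the gene bound on the coding strand was used, and 446 coding genes without a strand were left out. A gene was called where a peak lay within 1 kb of a start, and the strongest peak by fold was kept. Ranks and widths were compared with exact permutation tests over 35 splits and calls with Fisher's exact test, at a threshold of 0.05. The p-values were not corrected for the number of genes tested. Summit fragments were recovered from the fold and p, which all 57 receptor peaks allowed. The receptor genes and the other lists were chosen with earlier results of these data known. All receptor genes are named, and at most 4 genes of each other list, in the order written, from those called in 7 or 0 lists or lying beside a receptor gene. Alternatives were ranking by -log10 p, by summit fragments, as a percent of the list, or among consensus peaks called in all 7 lists, the summit in place of the peak within 1 kb, summed widths, a -log10 q of at least 5, a window of 3 kb, lists of equal length, each library left out, and the replicate number as a block. The steps were tested on simulated data. Python 3.11.15, numpy 2.4.6, pandas 2.3.3, scipy 1.17.1, and matplotlib 3.10.9 were used.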

Additional observations from a re-analysis of the deposited data

Results flagged for a closer look

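Of 16 sets of 4 LFD-LSK values examined, 1 held a library far from the others. Ifngr1 ranked at 0.564% of the list in LFD-LSK replicate 4, and the other LFD-LSK lists had 18.1%, 15.4%, and 16.7%. The gap to the nearest of them, divided by the range of the group, was above the critical value of Dixon's test for 4 samples. Chance alone gives about 1 such library in 20 groups, and the 3 HFD-LSK lists were too few to examine.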

How the results depend on the processing

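The count of genes whose ranks did not overlap between the diets fell from 2 (Ifnar2 and Ifngr1) to 1 in 4 settings. That gene was Ifnar2 when peaks were ranked by -log10 p, with a -log10 q of at least 5, and with lists of equal length, and it was Tnfrsf1b, in the opposite direction, as a percent of the list. With that q limit and with lists of equal length, the rank difference of Ifnar2 was the reported 1417, unchanged. Those settings removed only peaks ranked after it and were no test of Ifnar2. The count was 2 to 3 with 1 library left out. The count of genes called in all 7 lists fell from 4 to 2 with a -log10 q of at least 5 and with lists of equal length, and was 4 to 6 with 1 library left out. The difference in receptor genes called per list, 0.917, was 2.08 with a -log10 q of at least 5 and 0.667 to 1.33 with 1 library left out. The share of all coding genes was obtained for the lists as deposited, by rank number and as a percent of the list. Counts under the other settings stand without such a share and were not read against one. The causes were not tested.

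Of the rank differences that were not past the test, those of Il1r1, Il1rap, Tnfrsf1a, Il6ra, Il6st, and Ifnar1 reversed in some setting and that of Tnfrsf1b did not. Il1r1 gave -17.9 percent of the list, -786 with a -log10 q of at least 5, -276 with lists of equal length, and -1695 to 1681 with 1 library left out. Il6ra gave -1.56 percent of the list and 319.5 to 3509 with 1 library left out. In these percents, lists without a call entered past the end of the list. For Il1r1 they stood at 130% (HFD-LSK replicate 1) and 148% (LFD-LSK replicate 1), and for Il6ra at 148% (LFD-LSK replicate 1). Over the lists with a call, the Il1r1 means were 51.9% in HFD-LSK and 78.3% in LFD-LSK. Those of Il6ra were 68.0% and 43.3%, so Il6ra did not reverse over those lists. Ranked by summit fragments, Il6st gave -150 and Ifnar1 819, and Tnfrsf1b kept its sign at -737. With 1 library left out, Il1rap ranged from -2723 to 168.5 (positive without LFD-LSK replicate 3), and Tnfrsf1a from -3067 to 295 and Ifnar1 from -2217 to 822 (both positive without LFD-LSK replicate 4). Width differences then ranged from 70 (without HFD-LSK replicate 2) to 819.5 bp (without HFD-LSK replicate 3) for Tnfrsf1b, from -23.3 to 296 bp for Il6st, -209 to 593 for Ifnar2, and -288.5 to 53.5 for Ifngr1. With 1 library left out, rank differences were 1087 to 1758 for Ifnar2 and 1649 to 6522 for Ifngr1, the lowest without HFD-LSK replicate 3, and the smallest p that these designs allow is 0.0667 or 0.1, so the p-values there say nothing of stability.

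The labels do not say whether the replicate numbers pair the samples. Same-numbered libraries correlated at 0.116, -0.0359, and 0.0373 in their deviations from the group means, and differently numbered ones at -0.157 to 0.0902. These values cannot settle the pairing. The study's methods state that its peak comparison took batch and pairing into account, and the main tests here used neither. With the replicate number as a block, the difference in genes called per list was 0.667, the rank differences were -973 for Il1r1, 295 for Tnfrsf1a, 822 for Ifnar1, 1544 for Ifnar2, and 4289 for Ifngr1, and the width difference of Il6st was -23.3 bp. The smallest p with 3 pairs is 0.25. Of 130 alternative rank differences, 95 kept their direction and side of the threshold, 21 kept the direction alone, and 14 reversed. With 1 library left out or with the block, no p can reach 0.05, and the 3 kb window changed no rank difference. These counts therefore do not measure stability.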
